A study of Macaca mulatta with 6 samples.

Results

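The temporal retinas of 3 rhesus macaques (Macaca mulatta) that had received no direct treatment were profiled as the control arm of a gamma knife study, and the baseline gene expression of these control retinas is described here from their 3 arrays, out of 6 arrays in the series. The members were chosen by their titles and their control label, and the 3 arrays from irradiated sides were not used. The animals were males aged 8 to 10 years. In each of them 1 intraorbital optic nerve had been irradiated with 15 Gy by gamma knife, a stereotactic beam of focused gamma rays, and the control retina was that of the opposite eye, collected 24 h later. The control retinas were therefore not from untouched animals: the eyeball on the control side had received 1 Gy, the monkeys had been anesthetized with ketamine and pentobarbital, and no array of an unirradiated monkey entered here. The retina was dissected without the retinal pigment epithelium, and RNA of its temporal side was put on the rhesus macaque expression array of Affymetrix, with 1 array for 1 retina of 1 monkey.

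The retina turns light into nerve signals. Rods and cones absorb photons in their outer segments, where an opsin activates the G protein transducin, transducin activates a phosphodiesterase, and the fall in cyclic GMP closes a cation channel. The signal passes through ribbon synapses to bipolar cells, is shaped by horizontal and amacrine cells, and leaves the eye in the axons of retinal ganglion cells. Müller glia span the neural layers, take up glutamate and potassium, and recycle chromophore for cones. Photoreceptors hold dense mitochondria in their inner segments and are known for a high rate of glycolysis that yields lactate even when oxygen is present.

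Signals are given as log2 of the MAS5 signal, a value per probe set (a group of short probes for 1 transcript) that is scaled within each array. Of 52024 probe sets, 24956 carried 1 gene symbol, 361 carried several and 26707 carried none. Each of the 14132 named genes was represented by its probe set of highest mean, and genes were ranked from 1, the brightest, to 14132. How well the probes bind sets the signal along with the transcript level, so ranks order signals, not transcript numbers. A gene is called bright here when it lay in the top 5% (706 genes, down to a log2 signal of 12.37) and near the floor when its mean log2 signal was under 5, where MAS5 values scatter widely. By these definitions 5% of all named genes were bright and 15.1% (2137 genes) were near the floor. The median gene had a log2 signal of 8.43, with quartiles of 6.08 and 10.32, and the median SD over the 3 retinas was 0.328. All values are means over n = 3 arrays with the SD of the log2 signal, and because there is a single group no test was made.

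The 3 arrays ordered the genes alike. Pearson's correlation over the 14132 genes was 0.943 between replicates 1 and 2, 0.939 between replicates 1 and 3, and 0.956 between replicates 2 and 3, as a description over genes, which are not independent. The 100 brightest genes of single arrays shared 83 to 89 genes between pairs of arrays, and 79 were among the 100 brightest on all 3. The gene medians were 8.48, 8.42 and 8.43 for replicates 1, 2 and 3. Replicate 1 had fewer probe sets under a log2 signal of 5 (22.6%, against 24.8% and 25.9%).

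Photoreceptor genes, housekeeping genes of translation and glycolysis, and a few genes of Müller glia were among the brightest. Of the 100 brightest genes, down to a log2 signal of 14.10, 16 were on the photoreceptor lists, 13 were cytosolic ribosomal proteins, 5 were glycolytic enzymes, 3 were Müller glia genes and 3 were translation factors. A further 25 had only a LOC symbol, where 1139 of all 14132 named genes had one. Of these 25, 14 were annotated as pseudogenes, 9 as protein coding and 2 as other RNAs. The brightest gene of all was one of these 25, at 15.90. Another 27 had a name but were on none of the lists. Probes can bind both a pseudogene and its parent gene, and their signals were not separated here. The brightest gene with a name was SAG, rod arrestin, which helps to end the light response. Its log2 signal was 15.44, 15.50 and 15.54 on replicates 1 to 3, with a mean of 15.49 ± 0.05 (SD, n = 3), at rank 2. All 3 retinas thus lay within a narrow band for this gene.

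The 30 brightest genes with a name held 10 of the photoreceptor lists, each named here with its rank. SAG (rank 2) and RCVRN (rank 10), which encodes the calcium sensor recoverin, act in the shut-off of the light response, as does PDC (rank 28), phosducin, which binds the transducin beta and gamma subunits. GNGT1 (rank 5), PDE6A (rank 6), GNAT1 (rank 20) and PDE6G (rank 25) encode the rod transducin and phosphodiesterase, and PDE6H (rank 12) the inhibitory subunit of the cone phosphodiesterase. NRL (rank 14) is the transcription factor that sets the rod fate, and UNC119 (rank 23) carries lipid-tailed proteins such as transducin to the outer segment. The glial genes GLUL (rank 27) and DKK3 (rank 29) followed, with ACTG1, the cytoplasmic actin (rank 30), ENO1 and ALDOA of glycolysis (ranks 31 and 33) and RPS28, RPL35A, RPLP1 and RPL17 of the ribosome (ranks 21, 32, 34 and 35).

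The others of these 30 were genes without a list. H3-3B, a replacement histone, was at 15.43 ± 0.09 and rank 3, and CKB, the brain creatine kinase that buffers ATP, at 15.01 ± 0.24 and rank 17. RALGAPA1, ZNF652, LIN7A, BTBD3, LYAR, SLC25A17, ZNF732, AOAH and OAZ1 stood between 15.34 and 14.73. For several of these the place rested on 1 probe set. RALGAPA1 had further probe sets at 11.27, 10.61 and 4.11 beside the one at 15.34. Likewise ZNF652 had a second at 10.80 beside 15.22, AOAH a second at 7.09 beside 14.73, and SLC25A17 others at 13.10 and 11.54 beside 15.00. LIN7A, a scaffold protein of synapses, ranged from 9.71 to 15.03 over its probe sets, and LYAR from 8.09 to 15.01. BTBD3 stood out the other way, since all 5 of its probe sets lay between 13.46 and 15.01. Of the 55 genes in the top 100 that have several probe sets, 36 had a gap of over 3 on the log2 scale between the brightest and the dimmest one, and over all genes with several probe sets this share was 40.5%.

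**Figure D1:**
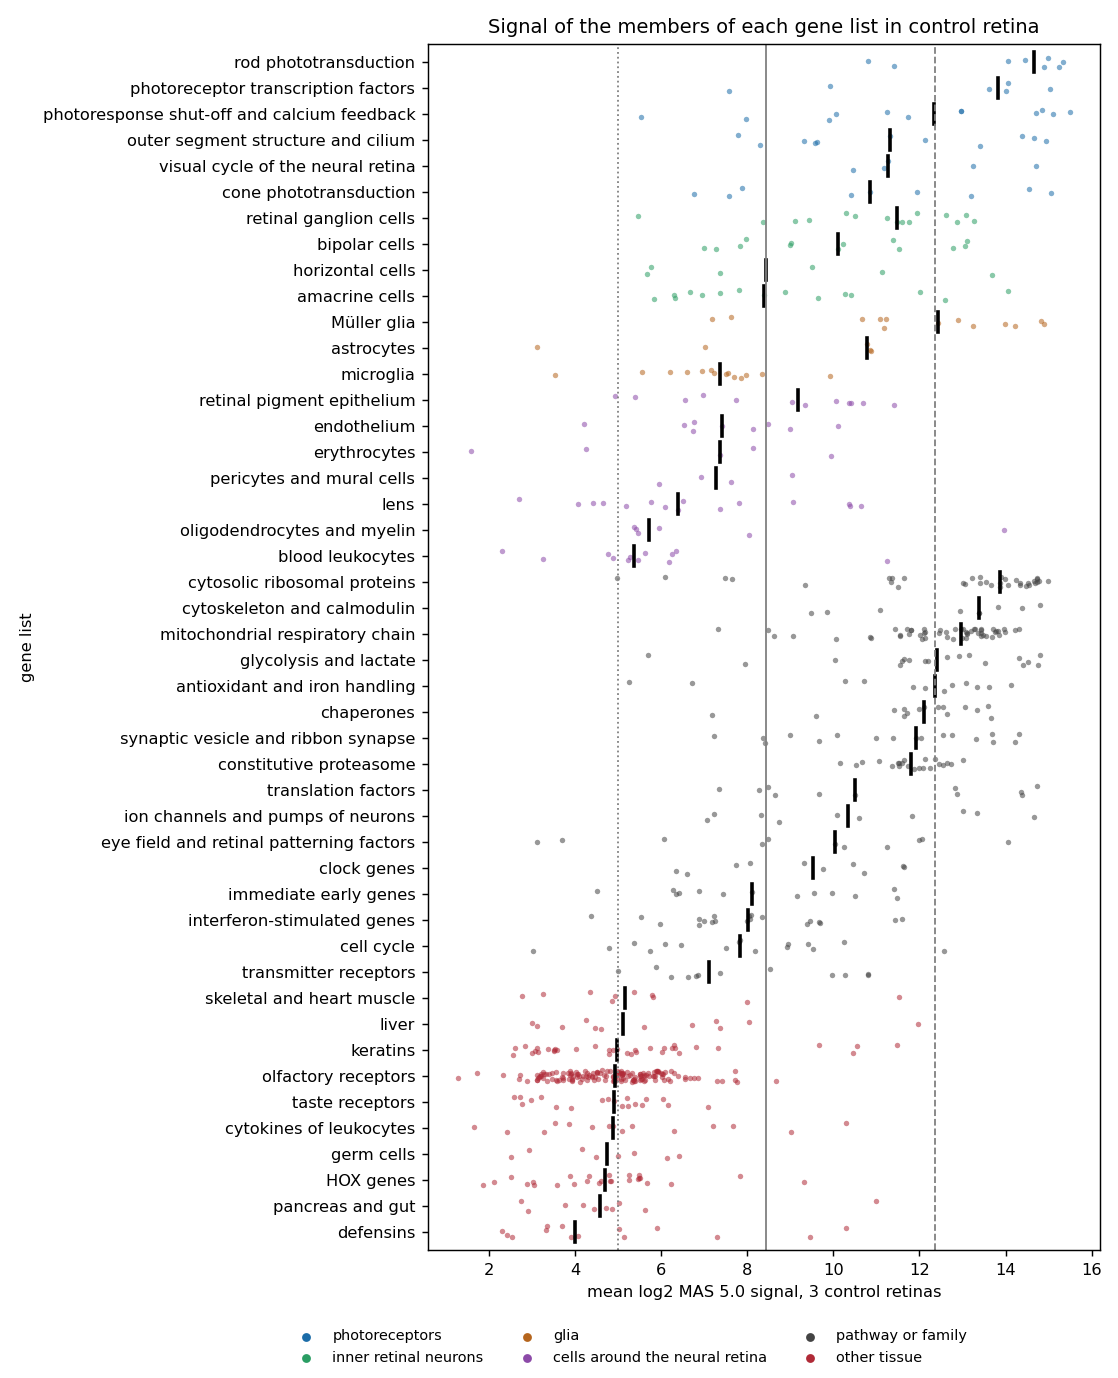
Mean log2 MAS5 signal (x axis) of every measured member of each gene list (y axis, 1 point per gene, colored by class), averaged over the 3 control retinas, with the list median as a black bar. The solid line marks the median of all named genes (8.43), the dashed line the start of the top 5% (12.37) and the dotted line a log2 signal of 5: photoreceptor, ribosomal and respiratory chain genes lie mostly to the right, and lists of other tissues around the dotted line.

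The plot of list signals orders the classes. Of 51 measured photoreceptor genes 25 (49.0%) were bright, and none was near the floor, with the median gene at percentile 93.9 (100 being the brightest). Of 49 genes of inner retinal neurons 10 (20.4%) were bright and none was near the floor, with a median percentile of 72.2. Of 32 glial genes 7 (21.9%) were bright and 2 near the floor, with a median percentile of 46.9. Genes of cells that lie around or pass through the neural retina (pigment epithelium, vessels, blood, myelin, lens) had 1 bright member of 63, CNP, 12 (19.0%) near the floor and a median percentile of 29.9. None of 302 genes of other tissues was bright, and 163 (54.0%) were near the floor. In bulk tissue, few cells of a type and little RNA per cell cannot be told apart, and the lists hold genes picked as markers, so the classes describe these genes and not cell numbers.

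Rod phototransduction stood highest of the photoreceptor lists. Of 8 measured genes 6 were bright, with a median percentile of 99.7. GNGT1, the rod transducin gamma subunit, had log2 signals of 15.37, 15.24 and 15.39, and GNAT1, the rod transducin alpha subunit, of 14.96, 14.98 and 15.01. The 3 retinas hardly differed for either gene. PDE6A, the catalytic alpha subunit of the rod phosphodiesterase, was at 14.95, 15.41 and 15.40, lowest on replicate 1, and its second probe set averaged 7.36. PDE6G, the inhibitory subunit, was at 14.89 ± 0.06. GNB1, the transducin beta subunit that many cells also use, was at 14.44 ± 0.37, with 2 further probe sets at 13.03 and 10.87. The channel that cyclic GMP keeps open gave unequal signals for its subunits: CNGA1 was at 14.06 ± 0.13 (rank 104) and CNGB1 at 11.40 ± 0.07 (rank 1723). SLC24A1, the rod sodium and calcium exchanger, was the dimmest of the list, at 11.36, 10.54 and 10.53.

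Cone phototransduction genes spread over a wider range. Of 9 measured genes (of 12 listed) 3 were bright, with a median percentile of 82.0. PDE6H was at 14.96, 15.06 and 15.16 and ARR3, cone arrestin, at 14.11, 14.66 and 14.88, so both lay among the 100 brightest genes and both were lowest on replicate 1. GNB3, the cone transducin beta subunit that ON bipolar cells share, was at 13.20 ± 0.26. GNAT2, the cone transducin alpha subunit, was at 12.15, 11.81 and 11.86 (mean 11.94 ± 0.19, rank 1060) and PDE6C, the catalytic subunit of the cone phosphodiesterase, at 10.85 ± 0.10. GNGT2, the gamma subunit, averaged 10.42 ± 0.35. The cone channel subunits CNGA3 (7.87 ± 0.17) and CNGB3 (7.57 ± 0.56) and the exchanger SLC24A2 (6.75 ± 0.18) lay below the median of all genes. No cone opsin was among the named genes measured here. Of the non-visual opsins OPN3 was at 6.16 ± 0.34 and OPN5 at 5.51 ± 0.30, with other probe sets at 3.99 and 3.64.

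**Figure D2:**
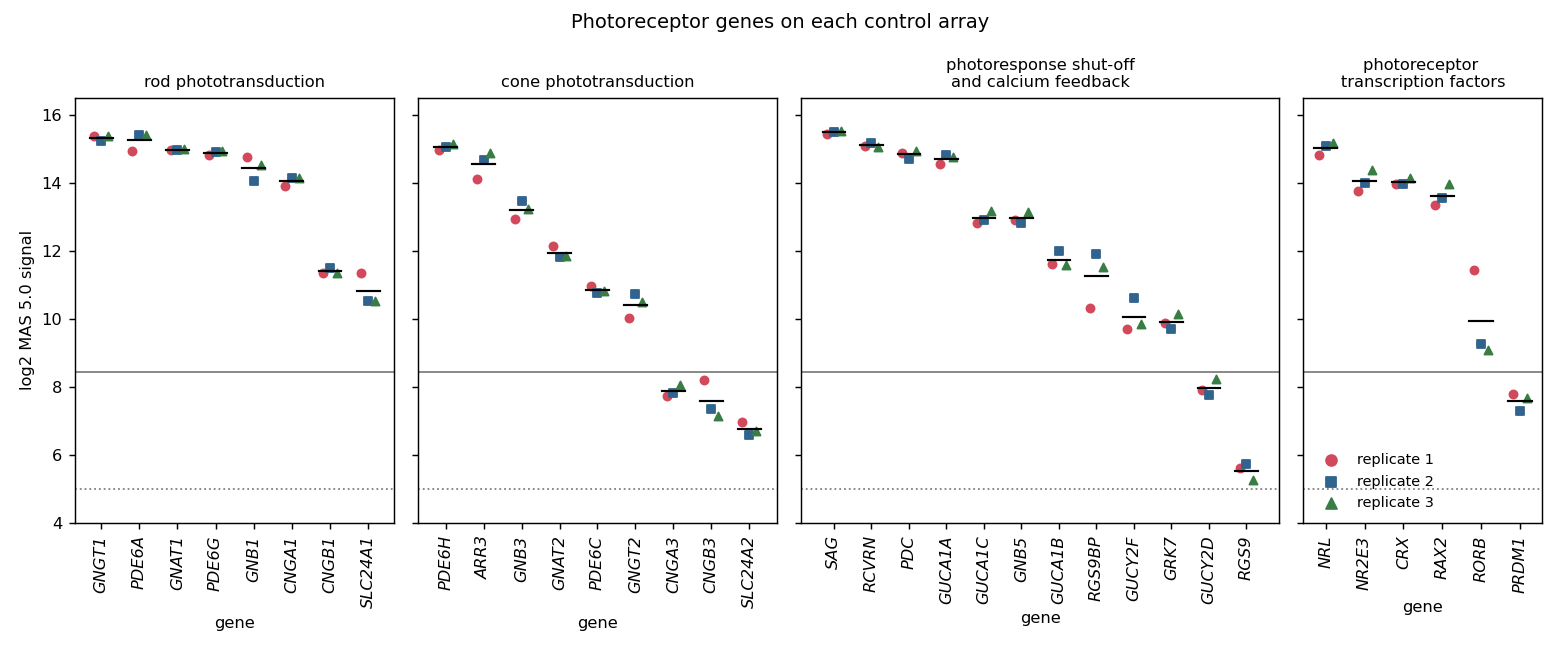
Log2 MAS5 signal (y axis) of each photoreceptor gene (x axis) on control replicates 1 (circles), 2 (squares) and 3 (triangles), with the mean as a bar, in 4 gene lists. The solid line marks the median of all named genes (8.43) and the dotted line a log2 signal of 5; most genes have 3 close points, and RORB and RGS9BP show replicate 1 apart from the others.

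The genes that end the photoresponse and restore calcium included the brightest and the dimmest of the photoreceptor genes. Of 12 measured genes 6 were bright, with a median percentile of 94.0. After SAG and RCVRN came PDC (14.85 ± 0.13) and GUCA1A (14.71 ± 0.13), a calcium sensor that activates guanylate cyclase when calcium falls. Its relatives GUCA1C (12.97 ± 0.19, bright) and GUCA1B (11.73 ± 0.24) had lower signals. The guanylate cyclases themselves, which GUCA1A and GUCA1B switch on, were lower still: GUCY2F was at 10.05 ± 0.48 and GUCY2D at 7.97 ± 0.23. The complex that speeds up the GTPase of transducin was split. GNB5 was at 12.96 ± 0.18, its membrane anchor RGS9BP at 10.33, 11.92 and 11.52, and its catalytic member RGS9 at 5.62, 5.72 and 5.25 (rank 11360), close to the floor in all 3 retinas. GRK7, the cone opsin kinase, was at 9.90 ± 0.22.

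The transcription factors that build photoreceptors were bright for the most part. NRL was at 14.83, 15.10 and 15.19, NR2E3, the nuclear receptor that represses cone genes in rods, at 13.77, 13.98 and 14.39, and RAX2 at 13.34, 13.57 and 13.96. These 3 genes had the same order of retinas, replicate 1 lowest and replicate 3 highest. CRX, which turns on rod and cone genes alike, was at 14.02 ± 0.11 with a second probe set at 10.17, and the second probe set of NRL averaged 11.81. RORB stood apart from them, at 11.45 on replicate 1 against 9.27 and 9.07, and PRDM1 was the dimmest of the 6, at 7.58 ± 0.25.

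Outer segment and cilium genes had 4 bright members of 11 measured (of 21 listed), with a median percentile of 87.0. UNC119 was at 14.93 ± 0.09 and PROM1, which shapes the membrane discs, at 14.67 ± 0.08. RP1, a microtubule protein of the axoneme, was at 13.59 on replicate 1 and at 14.76 and 14.82 on the others, and its second probe set at 10.05. MAK, a kinase of the cilium, was at 13.42 ± 0.39, PRPH2, peripherin of the disc rim, at 12.43, 12.61 and 11.36, and RPGRIP1 at 11.32 ± 0.72. The dimmest was CDHR1, a cadherin at the base of the outer segment, at 7.77 ± 0.43. In the visual cycle, RBP3, which carries retinoid across the space between photoreceptors and pigment epithelium, was at 14.70 ± 0.13 and rank 43. RLBP1, the retinal-binding protein of Müller glia, was at 13.24 ± 0.29, and the retinol dehydrogenase RDH8 of outer segments at 11.26 ± 0.33. RDH10 was lowest on replicate 1, at 9.81 against 12.17 and 11.56, and DHRS3 was at 10.46 ± 0.54.

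Synaptic genes ranked high as well. Of 17 measured genes of synaptic vesicles and ribbons 7 were bright, with a median percentile of 92.3. STX3, the syntaxin of ribbon synapses, was brightest at 14.11, 14.43 and 14.42 (rank 78), with other probe sets at 10.24 and 9.50. SYT1, the calcium sensor of vesicle release, was at 14.22 ± 0.11, and CTBP2, whose long form is the ribbon protein RIBEYE, at 13.70 ± 0.15 with other probe sets from 12.22 down to 2.54. These probe sets do not say which form of CTBP2 was measured. SV2B was at 13.69 ± 0.39, and the photoreceptor calcium channel parts CACNA2D4 (13.32 ± 0.24) and CABP4 (12.77 ± 0.38) were bright, while the pore subunit CACNA1F was at 10.99 ± 0.27. SLC17A7, the glutamate transporter of photoreceptor and bipolar vesicles, differed widely between retinas, at 12.49, 11.61 and 10.08. STX1A, the syntaxin of conventional synapses, was the dimmest at 7.22 ± 0.52.

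Bipolar cell genes were bright for CABP5, a calcium-binding protein (13.10 ± 0.21), GNAO1, the G protein through which the ON pathway signals (13.05 ± 0.08), and PCP2 (12.79 ± 0.27). The other 10 of 13 measured lay lower, with a list median at percentile 72.2. TRPM1, the channel of the ON response, was at 11.53 ± 0.14, ISL1 at 11.38 ± 0.10 and VSX1, a transcription factor of cone bipolar cells, at 10.23 ± 0.07, with other probe sets at 8.27 and 6.98. PRKCA, the usual stain of rod bipolar cells, was at 7.97 ± 0.39, and LHX4 was the dimmest at 7.0 ± 0.43 with a second probe set at 1.91.

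Amacrine and horizontal cell lists each had a median near that of all genes, at percentiles 49.7 and 51.0. Bright were 2 of 15 measured amacrine genes and 1 of 6 measured horizontal cell genes. Without cross-binding probe sets, whose design lets them bind several transcripts, the horizontal cell median was at percentile 65.6, with 5 genes measured. PAX6, a transcription factor kept in amacrine and ganglion cells, had log2 signals of 14.06, 14.11 and 14.00 (rank 105), with the smallest SD of both lists. GAD1, the enzyme that makes GABA, was bright at 12.68, 12.32 and 12.76, but its other probe sets averaged 7.50 and 7.42. TFAP2A was at 12.02 ± 0.16 with other probe sets at 8.96 and 6.47, TFAP2B at 10.41 ± 0.10, GAD2 at 10.27 ± 0.31 and DAB1 at 9.63 ± 0.10. Markers of sparse amacrine types were dim. TH, of dopaminergic cells, was at 6.68 ± 0.56, VIP at 6.32 ± 0.83, CHAT, of starburst cells, at 6.31 ± 0.52, and SLC18A3, the vesicular acetylcholine transporter, at 4.10, 6.54 and 6.85. SLC6A9, the glycine transporter, was at 8.77 on replicate 1 and at 6.65 and 6.67 on the others. Of the horizontal cell genes PVALB, parvalbumin, was bright at 13.69 ± 0.17. PROX1 was at 11.14 ± 0.44 with other probe sets from 9.33 down to 3.96, ONECUT1 at 9.51 ± 0.23, ONECUT2 at 7.37 ± 0.53, LHX1 at 5.76 ± 0.21 and the gap junction gene GJA10 at 5.67 ± 0.48.

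Retinal ganglion cells, whose axons form the optic nerve, had the highest list median of the inner neurons, at percentile 88.5, with 4 of 15 measured genes bright. NEFH, the heavy neurofilament, was at 13.19, 13.47 and 13.17, and STMN2, a tubulin-binding protein of axons, at 13.27, 13.11 and 12.87. NELL2 was at 12.87 ± 0.17 and UCHL1, a neuronal ubiquitin hydrolase, at 12.61 ± 0.38 with other probe sets at 10.32 and 5.23. All of these are found in other neurons as well. TUBB3 (11.93 ± 0.20, its other probe sets 10.79, 10.76 and 6.02) and THY1 (11.76 ± 0.16) came next. Of the factors more closely tied to ganglion cells, POU4F2 was at 10.70, 10.57 and 10.23. RBPMS was at 9.98, 9.0 and 8.36, highest on replicate 1, whereas RBPMS2 was lowest there at 7.48 against 8.88 and 8.76. POU4F3 was the dimmest at 5.45 ± 0.94.

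Receptors for the transmitters released onto these cells ranked lower than the release machinery. None of 12 measured was bright, and the median percentile was 35.5. GRIA4, an AMPA receptor subunit, was at 10.81 ± 0.27 with a second probe set at 7.09, GABRR1, a subunit of bipolar cell GABA receptors, at 10.80 ± 0.07, and GLRB, the glycine receptor beta subunit, at 10.27 ± 0.37. GLRA1 was the dimmest at 5.0 ± 1.39. Among channels and pumps, ATP1B1, a subunit of the sodium pump, was at 14.67 ± 0.10 and rank 45, with other probe sets from 13.42 down to 10.46, and KCNV2, a photoreceptor potassium channel subunit, at 13.33 ± 0.27. CLCN3 was bright as well, at 13.02 ± 0.26. The sodium channel SCN8A was the dimmest of the 10, at 8.11, 6.33 and 6.74.

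Müller glia had the bright genes of the glial lists, 7 of 13 measured, with a median percentile of 95.4. GLUL, glutamine synthetase, was at 14.71, 14.88 and 15.06, DKK3 at 14.68, 14.62 and 15.17, and WIF1, a secreted Wnt inhibitor, at 14.28, 14.25 and 14.12. The retinas were closest for WIF1, and DKK3 was highest on replicate 3. The other bright members were VIM, vimentin (13.98 ± 0.16), RLBP1, SLC1A3, the glial glutamate transporter (12.89 ± 0.22, a second probe set at 9.77), and APOE (12.44 ± 0.29, others at 12.35 and 9.42). The list depended on the choice of probe set: GLUL had others at 12.88, 6.15, 5.58 and 1.60, DKK3 from 13.23 down to 5.78, and VIM at 13.83, 12.78 and 4.99. With the median over the probe sets of a gene, the list median fell to percentile 64.3 and the bright glial genes of all 3 glial lists numbered 4. KCNJ10, the potassium channel of Müller endfeet, was at 10.66 ± 0.68 with a second probe set at 6.81. SOX9 was dimmest at 8.13, 7.42 and 6.01.

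None of 5 measured astrocyte genes (of 7 listed) and none of 14 measured microglial genes (of 16 listed) was bright, where 5% of all named genes were. The 2 lists differed in level. The median percentile was 81.1 for astrocytes, or 70.4 without replicate 1, and 38.1 for microglia. GFAP, a filament protein that astrocytes hold and stressed Müller glia make, was at 10.67, 11.21 and 10.71, with a second probe set at 8.97, and S100B at 10.79 ± 0.72. SLC1A2 was at 12.44 on replicate 1 against 10.29 and 9.78. PAX2, a marker of astrocytes near the nerve head, lay near the floor at 3.11 ± 0.88. Of 14 microglial genes the brightest was CD68, a lysosomal protein, at 9.92 ± 0.27 with a second probe set at 5.12, followed by C1QA (8.34 ± 0.32, a second at 5.23), TYROBP (7.98 ± 0.27), CSF1R (7.85 ± 0.49) and C1QB (7.70 ± 0.13). P2RY12, AIF1 and CX3CR1 were at 7.22 ± 0.08, 6.95 ± 0.46 and 5.55 ± 0.74, and TMEM119 was near the floor at 3.54 ± 0.40.

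The retinas were dissected without pigment epithelium, and genes of that layer gave a mixed picture. None of 12 measured was bright, and the median percentile was 59.1, or 39.7 with the median over the probe sets of a gene. MITF, the factor of pigment cells, had the highest signal at 11.42 ± 0.12, though its second probe set averaged 7.23. RGR, an opsin found in pigment epithelium and Müller glia, was at 10.85, 10.18 and 11.05, TYRP1, a melanin enzyme, at 10.43, 10.17 and 10.63, and RDH5 at 10.35 ± 0.33 with a second probe set at 3.27. BEST1 was at 9.33 ± 0.14. By contrast the melanin genes PMEL (7.84, 6.85 and 4.97), DCT (7.62, 3.87 and 4.68) and TYR (4.22, 3.97 and 6.59) lay low and scattered. RPE65 was not among the named genes measured here.

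Genes of lens, blood, vessels and myelin were dim for the most part. The lens genes LIM2 (10.64 ± 0.75), BFSP2 (10.39 ± 0.31) and BFSP1 (10.37 ± 0.22) were the highest of 15, but each had a second probe set far lower, at 3.93, 6.13 and 3.78. The gamma crystallins CRYGB, CRYGC and CRYGA lay near the floor, at 4.64, 4.08 and 2.70. In blood, HBA, the hemoglobin alpha chain, was at 10.59, 8.34 and 10.94, so replicate 2 was lower than both others, and HBB followed the same order at 8.05, 7.80 and 8.55. AHSP was near the floor at 1.59 ± 0.86. Of 12 leukocyte genes only LYZ, lysozyme, was above the median gene, at 11.24 ± 0.42, and S100A8 was at 7.61, 3.26 and 5.99. NKG7 was the dimmest at 2.30 ± 0.59. Endothelial genes ranged from CLDN5, the tight junction claudin, at 9.18, 10.92 and 10.22 through VWF (9.0 ± 0.46, a second probe set at 5.40) and PECAM1 (8.14 ± 0.13) to FLT1 at 4.20 ± 0.37. Pericyte genes ran from MCAM (9.05 ± 0.27) to KCNJ8 (5.94 ± 0.15).

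Myelin genes set one gene against the rest. CNP, a phosphodiesterase of myelin-forming cells, had log2 signals of 14.14, 13.90 and 13.87 (rank 118), with a second probe set at 12.67. MBP, the myelin basic protein, was at 4.36, 5.99 and 5.87, SOX10 at 5.95 ± 0.70, MAL at 5.47 ± 0.60 and OLIG2 at 5.36 ± 0.89. A second MBP probe set averaged 4.76, and UGT8, which makes myelin lipid, was at 8.04 ± 0.39 with a second at 4.33. The other 5 genes of the list thus lay below the median of all genes.

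Energy metabolism filled many of the bright ranks. Of 18 genes of glycolysis and lactate 9 were bright, with a median percentile of 95.2. ENO1 was at 14.80 ± 0.16, ALDOA at 14.76, 14.75 and 14.77, and LDHA, lactate dehydrogenase, at 14.51, 14.37 and 14.65. GAPDH was at 14.41 ± 0.12, ALDOC at 14.32 ± 0.02 and GPI at 13.51 ± 0.11. The dimmest ENO1 probe set averaged 7.76, and GPI had others at 12.82 and 8.81. The hexokinases HK1 (13.15 ± 0.15) and HK2 (12.19 ± 0.40) were both in the upper ranks. PKM, pyruvate kinase, stood apart on replicate 1, at 13.67 against 11.35 and 11.39, and a second PKM probe set had the same order at 12.81, 9.70 and 9.23. Of the lactate transporters SLC16A1 was at 11.75 ± 0.23, SLC16A3 at 7.96 ± 0.06 and SLC16A7 at 5.68 ± 0.33, the dimmest of the list.

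Nuclear genes of the mitochondrial respiratory chain had 33 bright members of 53 measured (62.3%), none near the floor, and a median percentile of 97.2. COX6B1 of complex IV was at 14.01, 14.42 and 14.52. Of the ATP synthase, ATP5MG was at 14.21 ± 0.25 (a second probe set at 7.14), ATP5F1B at 14.00 ± 0.13, ATP5MC3 at 13.96 ± 0.43 and ATP5PO at 13.85 ± 0.25 (others at 13.84 and 6.11). NDUFA4 was at 13.83 ± 0.31, and the dimmest gene was NDUFV3 of complex I at 7.32 ± 0.45. Mitochondrially encoded genes had no named probe set here. The 6 probe sets that the array design marks as mitochondrial had log2 signals from 8.02 to 15.89, with a median of 10.09.

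Ribosomal protein genes had a list median next to that of rod phototransduction. Of 35 measured (of 80 listed) 25 (71.4%) were bright, with a median percentile of 99.0. RPS28 was at 14.47, 15.23 and 15.25, RPL35A at 14.31, 14.83 and 15.19, and RPLP1 at 14.44, 14.77 and 15.02. Replicate 1 was lowest for all of these. RPL17 was at 14.73 ± 0.18, RPL30 at 14.72 ± 0.24 and RPS18 at 14.69 ± 0.37. RPS28, RPL35A and RPL30 also had probe sets at 6.32, 5.17 and 6.57. Ribosomal protein genes have many processed pseudogenes, and without the probe sets whose design lets them bind several transcripts, 15 of 29 remaining genes were bright. RPL5 was the dimmest, near the floor at 4.99 ± 1.52.

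Other housekeeping families were bright as well. Translation factors had 5 bright members of 11, led by EIF4A2 (14.72 ± 0.06), EIF4G2 (14.39 ± 0.08) and EIF1 (14.36 ± 0.08), with the dimmest, EIF3K, at 7.33 ± 0.07. Each of the first 3 also had a much dimmer probe set, at 6.27, 2.24 and 4.11. Chaperones had 7 of 15, led by HSPA8 (13.67 ± 0.09, others at 11.90 and 6.85) and HSP90AB1 (13.60 ± 0.19, down to 7.29), and CRYAB, a small heat shock protein that lens and glia share, was at 12.65 ± 0.25 with a second at 6.67. The proteasome had 5 of 22, led by PSMA7 (13.02 ± 0.20, others at 12.09 and 3.33), and its dimmest subunit PSMC3 was still at 10.15 ± 0.07. Cytoskeletal genes had 6 of 9, led by ACTG1 (14.80 ± 0.17), ACTB (14.37 ± 0.38) and TMSB4X (13.83 ± 0.10, others at 12.96, 2.58 and 1.84). Of 12 antioxidant and iron genes 6 were bright. SOD1, the cytosolic superoxide dismutase, was at 14.13, 14.04 and 14.20, GPX4, which reduces lipid peroxides, at 13.60 ± 0.33 and GSTP1 at 13.08 ± 0.68. PRDX6 was the dimmest of them and the most scattered, at 8.21, 5.02 and 2.50.

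Gene families known from other organs lay around the floor. Of 151 olfactory receptors none was bright and 80 (53.0%) were near the floor, with a median log2 signal of 4.92. The highest, OR4D11, was at 8.66 ± 0.51 with a second probe set at 6.27, and the lowest, OR4F6, at 1.29 ± 0.31. The same picture held for 19 taste receptors (10 near the floor, highest TAS1R1 at 7.08 ± 0.50), 26 HOX genes (16), 35 keratins (18) and 14 defensins (8). Single members stood out from these families. HOXD10 was at 9.31 ± 0.39, but its other probe sets averaged 5.60 and 2.08. KRT10 was at 11.42, 11.50 and 11.55, close in all retinas, with a second probe set at 9.40, and KRT18, a keratin of simple epithelia, at 10.45 ± 0.41. DEFB119 was at 10.30 ± 0.07 and its second probe set at 9.92.

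The organ lists had similar exceptions. SERPINA1, the alpha-1 antitrypsin of liver, had the highest signal of the 302 genes, at 11.75, 12.11 and 12.05 (rank 1022), but its 5 other probe sets ranged from 10.06 down to 4.87. Of the other 11 liver genes APOB (8.03 ± 0.13) was the highest and APOA1 (3.01 ± 0.90) the lowest. VIL1 of gut villi was at 10.99 ± 0.36, and its other probe sets lay between 5.84 and 2.31, while GCG was the lowest of the pancreas and gut list at 2.74 ± 1.61. The cardiac actin ACTC1 was at 11.52 ± 0.33 from a single probe set, CKM at 6.60, 8.66 and 8.75, and TNNI2 at 2.77 ± 0.60. Of 15 cytokines 8 were near the floor, down to IL4 at 1.64 ± 1.13. IL10 was at 10.02, 10.42 and 10.41 by 1 probe set and at 2.39 by the other, and IL2 at 9.01 ± 0.32 with others at 7.11 and 2.12. Germ cell genes ran from ZP3 (6.42 ± 0.39) to DAZL (4.08, 3.44 and 0). No gene was listed at 0 on all arrays, and 1084 of the 14132 genes were under 5 on each of them.

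From a log2 signal of 3 upward, the spread between the 3 retinas fell with signal. The median SD was 0.894 for genes with a mean log2 signal under 3, 1.12 from 3 to 5, 0.489 from 5 to 7, 0.307 from 7 to 9, 0.239 from 9 to 11, 0.211 from 11 to 13 and 0.185 from 13 upward. Among 7768 genes with a mean of 8 or more, 94 (1.21%) had an SD over 1. SAG, GNAT1, PDE6G and PAX6 had SDs of 0.06 or less. Among the 706 bright genes the 10 smallest SDs belonged to MSANTD4, ISCA1, ALDOA, UBE2E3, AFF4, NCOA2, MORF4L2, EFR3A, RPL7 and a gene with a LOC symbol. For MSANTD4 the signals were 12.46 on each array. Only 1 bright gene had an SD over 1, USP14, a deubiquitinase of the proteasome, at 14.28, 11.48 and 13.83. All 5 of its probe sets were lowest on replicate 2.

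**Figure D3:**
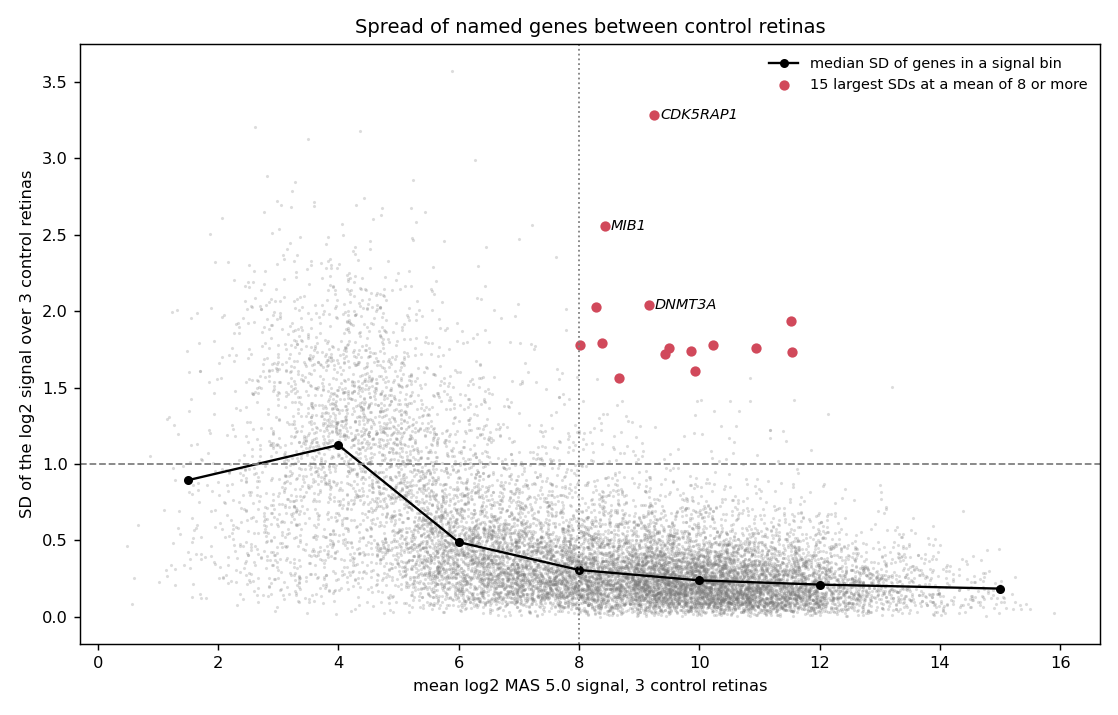
SD of the log2 MAS5 signal over the 3 control retinas (y axis) against the mean log2 signal (x axis) for the 14132 named genes (grey points), with the median SD in signal bins (black line). Red points are the 15 largest SDs among genes with a mean of 8 or more (right of the dotted line), led by CDK5RAP1 at 3.28; the dashed line marks an SD of 1, and the median SD falls from 1.12 at a signal of 3 to 5 to 0.185 at 13 and above.

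In 75 of the 94 genes replicate 1 was the array farthest from the others, against 9 for replicate 2 and 10 for replicate 3. The SDs over 1 thus come mainly from 1 retina. With replicate 1 left out 32 genes had an SD over 1, against 201 without replicate 2 and 154 without replicate 3. These SDs and means were taken over the 2 arrays left, so these counts compare with each other and not with the 94. The gene with the largest SD, CDK5RAP1, an enzyme that modifies mitochondrial transfer RNA, was at 5.47, 10.86 and 11.40. MIB1, a ubiquitin ligase of Notch ligands, was at 11.39, 6.94 and 6.96, the other way. DNMT3A, a DNA methyltransferase, was at 6.80, 10.35 and 10.33 by one probe set and at 8.28, 8.25 and 8.33 by the other, so only 1 of its probe sets set replicate 1 apart. EIF5A was at 6.01, 9.93 and 8.88, CADM3, a neural adhesion protein, at 8.18, 11.44 and 11.04, and AZGP1 at 7.85, 10.79 and 10.94, each lowest on replicate 1. MREG (11.52, 8.33 and 8.64), DLD (11.41, 8.63 and 8.26), MIS12 (11.78, 8.83 and 9.18), PPM1K (10.48, 7.74 and 7.79) and CPAMD8 (9.97, 6.49 and 7.58) were highest there. COL16A1, a collagen, was lowest on replicate 2, at 9.54 against 12.37 and 12.70. CPNE4, at 6.84, 10.35 and 7.98, was highest on replicate 2, and the 15 largest were completed by 2 genes with LOC symbols. Of the 94 genes 49 had a single probe set, so no second one could be compared.

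Replicate 1 was also the array most often apart from both others. Among genes with a mean of 8 or more, 276 were over 1 higher or lower on replicate 1 than on both other arrays (140 higher, 136 lower), against 35 for replicate 2 and 49 for replicate 3. Respiratory chain genes were lowest on replicate 1 in 46 of 53 cases (86.8%), where 40.9% of all named genes and 67.7% of all bright genes were. The median of replicate 1 minus the mean of the others was −0.45 for this list and −0.22 for the bright genes. For ribosomal protein genes the count was 25 of 35 (71.4%, median −0.34), near the share of all bright genes in the deposited values. Quantile normalization left this count at 25 of 35, against 50.3% of bright genes (medians −0.21 and −0.07). The excess of respiratory chain genes over bright genes in these counts depended on the scaling, whereas their median difference stayed the more negative. After quantile normalization of the 3 arrays respiratory chain genes were lowest on replicate 1 in 39 of 53 cases (73.6%), against 50.3% of bright genes. The medians were then −0.29 and −0.07. With each array centred on its median over all probe sets, the count was 48 of 53 (90.6%), against 90.7% of bright genes. Those array medians were 7.03, 6.74 and 6.69 for replicates 1, 2 and 3, highest on replicate 1. Centring moves all genes of an array by the same value, so both shares rose, and the median differences were −0.76 and −0.54. Müller glia genes were lowest on replicate 1 in 9 of 13 cases (69.2%), also near the share of bright genes in the deposited values. After quantile normalization they were lowest there in 10 of 13 (76.9%), against 50.3% of bright genes. With the median over the probe sets of a gene the count was 3 of 13, and their median difference turned to 0.09. Each array is a different monkey, so differences of animal, dissection and hybridization cannot be told apart.

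**Figure D4:**
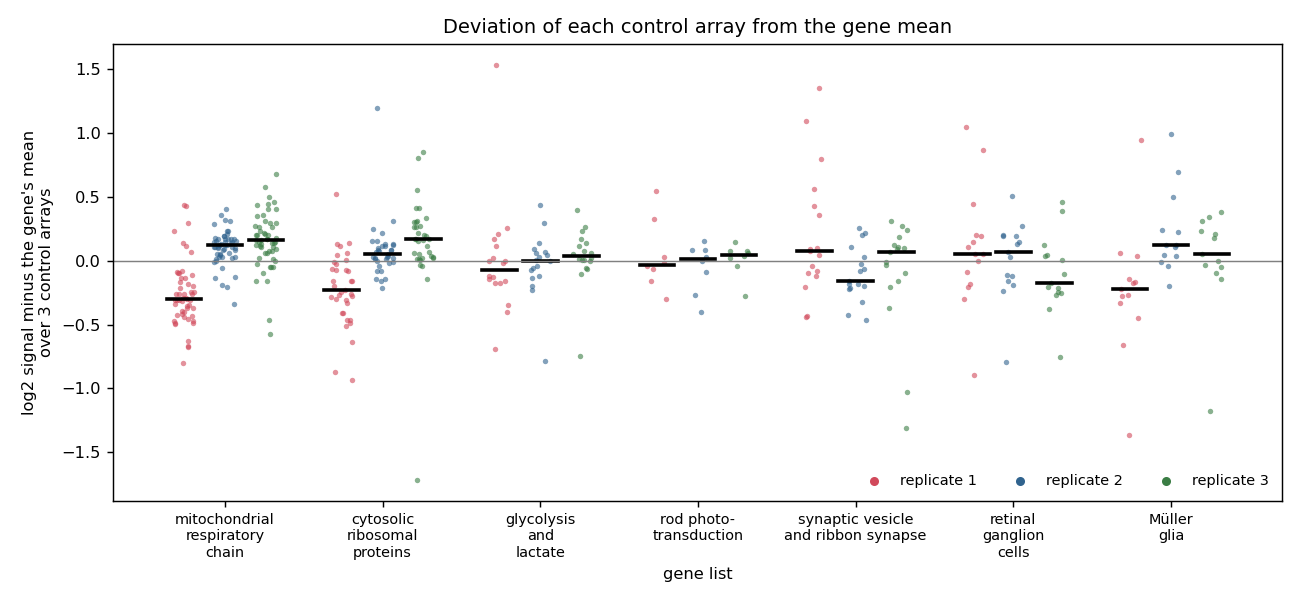
Log2 MAS5 signal of each gene on 1 control array minus its mean over the 3 control arrays (y axis) for 7 gene lists (x axis), with replicates 1, 2 and 3 in red, blue and green and the median of each set of points as a black bar. For respiratory chain and ribosomal protein genes replicate 1 lies mostly below 0, whereas the medians of rod phototransduction genes lie close to 0 on all 3 arrays.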

How the data were processed

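The authors extracted RNA with TRIzol, labelled it with a 3′ IVT kit and scanned 1 Affymetrix Rhesus Macaque Genome Array per retina. Deposited values are log2 MAS5 signals, summarised per probe set within an array and scaled to a common mean: the 2% trimmed means of the linear signals were 505.4, 505.8 and 505.7. Signals under 1 appear at a log2 value of 0 (102 to 161 probe sets per array). The number of arrays limits the precision, and detection calls were not used.

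The file held 52024 probe sets and no AFFX controls. Symbols came from the platform annotation, updated by gene identifier (98.6% found in assembly T2T-MMU8v2.0). Each gene took its probe set of highest mean. Means, SDs, ranks and list counts were computed with Python 3.11.15 and pandas 2.3.3, without further normalization, and drawn with matplotlib 3.10.9. The code for the ranking and the SD counts was run on simulated data with a common SD for all but 200 genes. Real spreads vary with signal, so this run checked the code and not the reported counts. Alternatives were quantile normalization, centring, each array left out, the median over probe sets, cross-binding probe sets left out, other averages, other symbols and other limits.

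Of 48 gene lists 47 had a measured member. The members and lists were chosen with earlier results of these data known. Named were the 30 brightest genes with a symbol other than LOC, up to 6 brightest and the dimmest members of each list with the defining cell markers, the 15 largest SDs at a mean of 8 or more, and the 10 smallest SDs in the top 5%. Genes whose probe sets differed by over 3 are given with their other probe sets, and further genes named in the text were chosen after their values were seen.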

Additional observations from a re-analysis of the deposited data

How the results depend on the processing

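Of 160 comparisons of the main counts with an alternative, 141 stayed within 1.5 times the reported count. Some of these could not differ: centring leaves the mean of each gene unchanged, so counts that rest on means or ranks were fixed under it. The count of genes with an SD over 1 (94) ranged from 32 (without replicate 1) to 201 (without replicate 2) when 1 array was left out. Those SDs were taken over the 2 arrays left. With all arrays the count was 165 with a mean of 7 or more, 50 with a mean of 9 or more and 927 with an SD limit of 0.5. The median over the probe sets of a gene left 4 bright glial genes in place of 7 and 63 genes of the top 100 shared with the reported one. Without cross-binding probe sets 15 ribosomal protein genes were bright in place of 25, with 29 measured. With bright taken as the top 1%, the counts were 1 for inner retinal neurons, 4 for glia, 37 for pathways and families, 4 for the respiratory chain and 5 for glycolysis, and with the top 10% 1 gene of other tissues was bright. With the floor at 4 it held 1146 genes, 91 of them of other tissues, and at 6 it held 3430 and 245. These limits change the counts by construction, and the cause of the other shifts was not tested. Median percentiles of the 47 lists moved by at most 0.18 under quantile normalization and, as the gene means stay the same, could not move under centring. The median over probe sets moved 30 of them by over 1 SD. The largest such move was Müller glia, from 95.4 to 64.3. Leaving out replicate 1 took the astrocyte list from 81.1 to 70.4. The lowest-on-replicate-1 counts of respiratory chain and ribosomal protein genes were examined after seeing the data: they were 36 to 48 of 53 (37 of 49 without cross-binding probe sets) and 25 to 33 of 35 (20 of 29). The share of all bright genes lowest there ran from 50.3% to 90.7%, and was 64.2% without cross-binding probe sets. The 36 of 53 (67.9%) came with the median over probe sets, against 61.2% of bright genes. The 33 of 35 (94.3%) came with centring, against 90.7%. No paired analysis was possible because only the control arrays were used and no groups were compared.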

Other observations

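Of the factors that pattern the eye, MEIS2 was at 12.06 ± 0.07 (SD, n = 3) and MEIS1 at 11.98 ± 0.04 on the log2 scale, and VAX2, known for its ventral expression in the eye, at 11.24 ± 0.28. RAX was at 10.26 ± 0.42 and SIX6, an eye field factor, at 10.04 ± 0.05. VAX1 (3.69 ± 1.23) and PAX2 (3.11 ± 0.88), both genes of the optic stalk, were the 2 of 11 measured genes near the floor. Clock genes had no bright member of 10. ARNTL, the partner of CLOCK, was at 11.53, 11.56 and 11.74, and CLOCK itself at 8.16, 5.98 and 4.92, so its retinas spanned a wide range. TEF, an output factor of the clock, was at 11.63 ± 0.23 with a second probe set at 6.60, and CRY2, a repressor, at 10.71 ± 0.31. PER1, PER3 and PER2 were at 9.32 ± 0.55, 7.74 ± 0.50 and 6.59 ± 0.59.

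Genes of division, interferon response and acute stimulation had list medians at percentiles 43.1, 45.2 and 46.1, and the last of these was 55.3 with the median over the probe sets of a gene and 54.1 without cross-binding probe sets. PCNA, a DNA clamp that repair also uses, was the only bright gene of 16 in the cell cycle list, at 12.49, 12.81 and 12.44. The proliferation markers MKI67 and TOP2A were at 5.75 ± 0.47 and 5.38 ± 0.82, and CENPA was near the floor at 3.03 ± 0.38. Of 20 interferon-stimulated genes, with a median percentile of 45.2, OAS1 (11.58 ± 0.43) and IFIT2 (11.43 ± 0.22) had the highest signals, and OASL (4.38 ± 1.14) the lowest. The other probe sets of OAS1 lay between 7.42 and 5.49 and those of IFIT2 between 10.27 and 6.73. Among immediate early genes ZFP36, which destabilizes cytokine transcripts, was at 11.48 ± 0.45 and DUSP1, a phosphatase of MAP kinases, at 10.72, 11.43 and 12.05, with a second probe set at 6.58. FOS was at 8.75, 9.18 and 9.54 and ARC at 3.22, 6.51 and 3.78. Handling, anesthesia and the dose to the control eye were common to the 3 retinas, and their part in these levels was not tested.

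Some of the brightest probe sets had no gene name. Of the 100 brightest probe sets 37 carried no symbol, a smaller share than over all probe sets (26707 of 52024). The brightest of these 37 was at 16.14, above each named gene. At or above the signal of gene 100 (14.10) lay 66 unnamed probe sets.

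Of the interferon genes with a symbol, IFNA21 was at 5.10 ± 0.99 and IFNK at 3.47 ± 0.82.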
